A study of Homo sapiens with 78 samples.

Results

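The AP-1 and immediate early genes are described here in single A375 and Jurkat cells. They are 10 genes chosen by name: the FOS family (FOS, FOSB, FOSL1 and FOSL2), the JUN family (JUN, JUNB and JUND), ATF3 of the ATF family, and the early genes EGR1 and IER2. They were 10 of the 36758 genes with a count in any well. A375 is a human melanoma cell line and Jurkat, clone E6-1, a human T cell leukemia cell line, neither of which received a treatment. Live single cells were sorted by FACS, A375 into PBS with an anti-CD47 label and Jurkat into lysis solution with an anti-CD81 label, and their total RNA was turned into libraries with reagents of kit #634413 (SMARTer Stranded v2, Pico Input) or kit #634444 (SMART-Seq Stranded). A375 cells were grown in DMEM and subcultured by confluence, and Jurkat cells in RPMI-1640 medium and subcultured by cell density. Cell line, medium, way of culture and harvest, antibody and sort buffer therefore cannot be told apart. Each well was sorted to hold 1 cell, although the study's sorts also had control wells without a cell, which the labels do not mark. For each kit 21 A375 wells and 18 Jurkat wells were deposited.

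AP-1 is a dimer of basic leucine zipper proteins. A FOS protein needs a JUN protein as its partner, whereas JUN proteins also pair with each other and with ATF proteins. Immediate early genes are transcribed within minutes of a growth factor, mitogen, stress or calcium signal, without the need for new protein, and their mRNAs are short-lived. In melanoma lines AP-1 is known as an effector of the MAP kinase pathway, and in T cells it is known for acting with NFAT at cytokine genes once the antigen receptor is engaged.

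A well was used when at least 100000 of its counts lay on protein coding genes, which kept 67 of the 78 wells: 15 and 16 A375 wells for kits #634413 and #634444, and 18 Jurkat wells for each kit. The kept wells held 303666 to 2356198 counts on Ensembl transcripts. The 11 wells left out were all A375 wells, with at most 31670 counts on protein coding genes, and whether any of them was a control well was not tested. Levels are given as CPM, a gene's counts scaled by all counts on Ensembl transcripts of the same well or, for a group, of its summed wells. A gene was compared between groups where the mean of their CPM was at least 1, and it was called at a 2-fold difference. The labels name no separate culture of either line, so each line stands for 1 sample. No test was run and no p-value is given, intervals are 95% exact intervals for counting error only, and fewer cells with a transcript cannot be told apart from less RNA per cell in a group's sum.

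The cell lines were checked with marker genes. T cell markers summed to at least 1302 CPM in every Jurkat well and at most 57.6 CPM in every kept A375 well, while the melanoma list summed to at least 239 CPM in A375 and at most 58.1 CPM in Jurkat. CD3D and CD3E were found in 18 of 18 Jurkat wells of each kit and in 0 A375 wells, and SOX10 in all 31 kept A375 wells and in 0 and 1 Jurkat wells. The pigment genes PMEL, MLANA and TYR, defining markers of the melanocyte, were at 4.65 CPM or less in A375, so the melanoma list rested on SOX10, CSPG4 and AXL. The heat shock list, chosen as a sign of handling, summed to medians of 3920 and 2687 CPM in A375 and 4165 and 4809 CPM in Jurkat for kits #634413 and #634444. HSPA8 and HSP90AA1 had the highest levels on the list, so the sum mainly follows them. HSPA1A went the other way, at 76.6 and 49.6 CPM in A375 and 7.25 and 14.4 CPM in Jurkat. The sum therefore does not rank the lines by handling, and the part of handling in any result below was not tested.

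The promoters of FOS, FOSB and EGR1 are shown because FOS varied with the other two between A375 wells, and that of JUN because it was lower, not higher, in A375 than in Jurkat. Each is the 250 bases before the annotated start (RefSeq, GRCh38.p14), read 5′ to 3′ on the strand of the gene: FOS chr14:75278578-75278827 (+), FOSB chr19:45467746-45467995 (+), EGR1 chr5:138465229-138465478 (+) and JUN chr1:58784048-58784297 (-). Capitals mark the motifs searched on both strands: the CArG box bound by serum response factor, the AP-1 site TGANTCA, the CRE core TGACG bound by CREB and ATF proteins, and the TATA box TATAAA. Where motifs overlap, the capitals run together.
FOS: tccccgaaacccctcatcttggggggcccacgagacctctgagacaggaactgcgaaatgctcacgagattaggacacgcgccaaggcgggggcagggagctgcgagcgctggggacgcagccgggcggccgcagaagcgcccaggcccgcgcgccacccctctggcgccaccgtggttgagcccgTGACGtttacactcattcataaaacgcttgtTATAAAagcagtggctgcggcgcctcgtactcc
FOSB: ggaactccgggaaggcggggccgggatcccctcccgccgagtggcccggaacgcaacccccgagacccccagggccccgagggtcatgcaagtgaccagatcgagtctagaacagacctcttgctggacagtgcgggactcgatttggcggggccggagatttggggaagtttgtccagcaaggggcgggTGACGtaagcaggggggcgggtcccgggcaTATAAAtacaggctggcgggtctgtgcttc
EGR1: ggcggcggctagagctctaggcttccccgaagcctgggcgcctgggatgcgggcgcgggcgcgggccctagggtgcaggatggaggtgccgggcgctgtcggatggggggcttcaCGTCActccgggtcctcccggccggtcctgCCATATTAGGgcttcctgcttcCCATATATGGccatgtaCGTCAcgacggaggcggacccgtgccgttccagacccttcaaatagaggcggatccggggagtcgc
JUN: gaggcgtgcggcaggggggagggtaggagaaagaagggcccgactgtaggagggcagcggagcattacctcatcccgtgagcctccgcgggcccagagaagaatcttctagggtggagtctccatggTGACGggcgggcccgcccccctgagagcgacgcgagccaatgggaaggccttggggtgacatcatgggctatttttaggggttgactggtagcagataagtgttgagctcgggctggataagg

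In these windows EGR1 held 2 CArG boxes, 105 and 83 bases before its start, and 2 CRE cores in reverse orientation. FOS and FOSB each held 1 CRE core, 64 and 60 bases before the start, followed by a TATA box 33 and 30 bases before it. JUN held 1 CRE core, 123 bases before its start. Promoters were found for 9 of the 10 genes, in 10 windows since ATF3 had 2. These 2 end at bases 212565406 and 212615017, whereas ATF3-202, the ATF3 transcript with the most counts in A375, starts at base 212608761. The bases before that start were not searched. A CRE core was in 8 of the 10 windows, none of them of ATF3, against 21.2% of 35116 promoters of the same length. A TATA box was in 4 of 10, against 10.7%, of which that of ATF3 lay 230 bases before the start. The CArG box was found in 1 of 10, EGR1, against 1.16% of all promoters, and the AP-1 site in 0 of 10, against 6.57%. These matches are letters in a window, not binding sites. Bases farther upstream were not searched, so a CArG box of FOS or another gene beyond its window would be missed. For AP-1 only the spelling TGANTCA was searched, and the JUN window holds tgacatca, which that pattern does not match. A window without a match therefore does not show that the gene lacks such a site.

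Between the cell lines, 5 of the 10 genes were at least 2-fold higher in A375 with kit #634413, against 35.9% of the 19614 genes with a mean of at least 1 CPM, and 1 was at least 2-fold lower, against 25.8%. With kit #634444, 6 were higher, against 33.9% of 19928 genes, and 0 were lower, against 23.2%. FOS, FOSB, FOSL1, ATF3 and EGR1 were higher with both kits, 5 of 10 against 25.3% of the 17426 genes above the minimum in both. FOSL1 had 0 counts in Jurkat with both kits, and FOSB had 0 with kit #634413. There they passed the minimum through A375 and could only be called higher. None of the 10 was lower with both, against 15.3%. The median log2 fold of the 10 genes was 1.85 and 1.49, beside 0.20 and 0.17 over all genes compared.

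**Figure D1:**
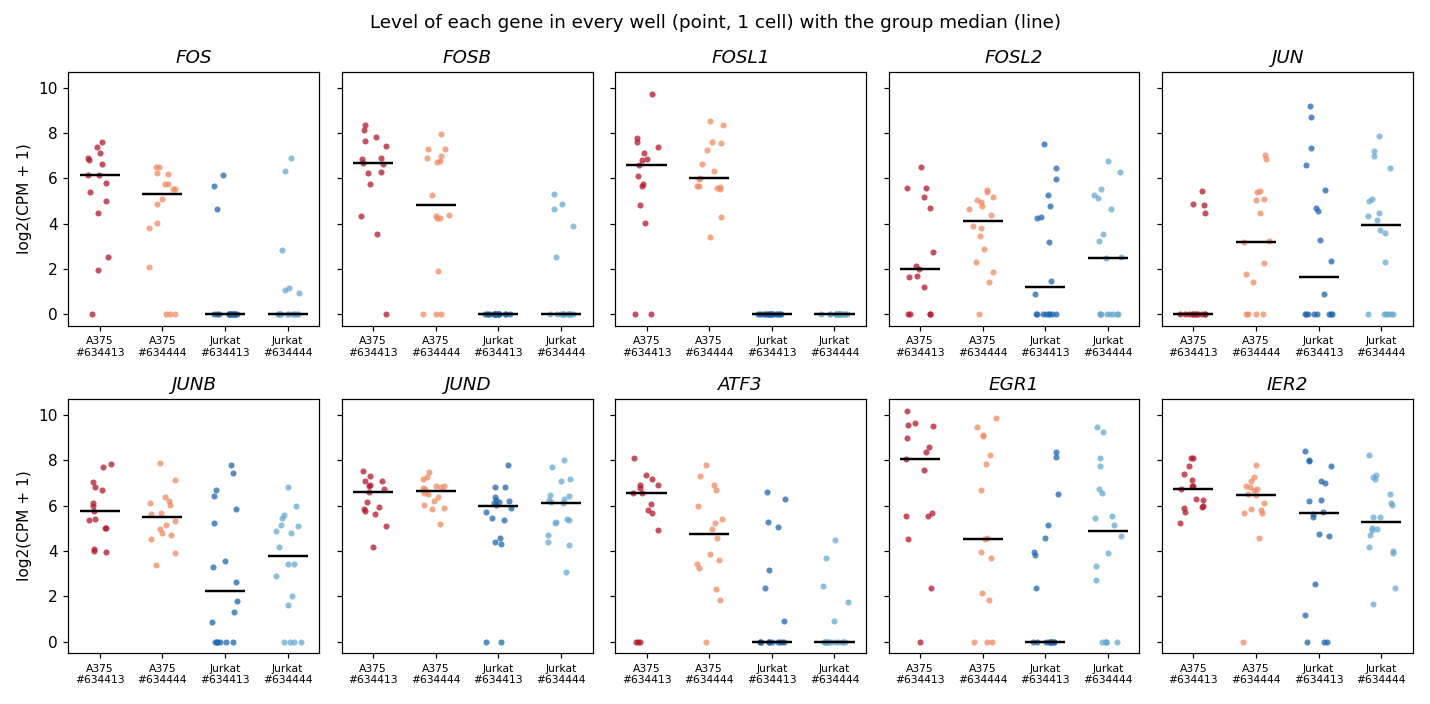
Level of each gene, as log2(CPM + 1), in every kept well (1 point per cell) of A375 and Jurkat with kits #634413 and #634444; black lines are group medians. FOSL1 was at 0 in every Jurkat well, FOS, FOSB and ATF3 had medians of 0 in Jurkat, and JUND and IER2 were above 0 in most wells of all 4 groups.

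**Figure D2:**
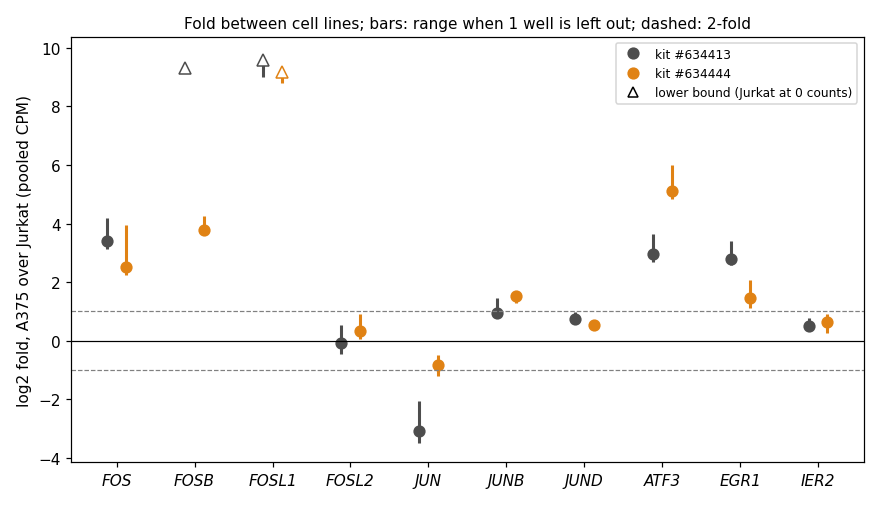
log2 fold of A375 over Jurkat in summed CPM for each gene and kit. Points are the fold, open triangles a lower bound where Jurkat had 0 counts (3 counts over the group were used), vertical bars the range when 1 well is left out, and dashed lines 2-fold; JUN stood below 0 with both kits and FOSL2 near 0.

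FOS (chromosome 14, 75278826 to 75282230, GRCh38) encodes the prototype partner of JUN. In A375 its lowest, median and highest wells were 0, 69.6 and 192 CPM with kit #634413 and 0, 38.8 and 90.4 CPM with kit #634444. In Jurkat they were 0, 0 and 69.6 CPM, and 0, 0 and 117 CPM. Most A375 wells had FOS and most Jurkat wells had none, but the groups overlapped with both kits. The highest Jurkat well reached into the A375 range with kit #634413 and lay above every A375 well with kit #634444. Summed over wells, FOS was at 78 CPM in A375 and 7.31 CPM in Jurkat with kit #634413, 10.7-fold (interval 8.81 to 13), and at 50.3 and 8.79 CPM with kit #634444, 5.72-fold (4.67 to 7.06). The Jurkat level rested on few wells. Without Jurkat well 14 of kit #634413 the log2 fold went from 3.42 to 4.19, and without Jurkat well 10 of kit #634444, which held 64.9% of the FOS counts of its group, from 2.52 to 3.95. With the mean of the wells' TPM in place of summed counts, the second log2 fold was 0.95, under 2-fold.

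FOSB (chromosome 19, 45467995 to 45475179) encodes a close relative of FOS that is induced by the same signals. In A375 the lowest, median and highest wells were 0, 102 and 331 CPM with kit #634413 and 0, 28.5 and 247 CPM with kit #634444. In Jurkat it was at 0 in all 18 wells with kit #634413, which allows a share of wells of up to 18.5% by the exact interval, and between 0 and 39.2 CPM, with a median of 0, with kit #634444. The A375 wells at 0 were 1 and 3. With kit #634413 the groups overlapped only at 0. With kit #634444 the overlap was wider, and 7 of 16 A375 wells stood above every Jurkat well. FOSB was at 123 CPM in A375 against 0 in Jurkat with kit #634413, at least 644-fold higher, and at 84.4 against 6.10 CPM with kit #634444, 13.8-fold (11 to 17.7). FOSB lies within the reverse-strand gene ERCC1, and the authors' quantification used strand; ERCC1 itself had 1421 and 1328 counts in A375 and 488 and 703 in Jurkat.

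FOSL1 (chromosome 11, 65892049 to 65900573) encodes FRA1, a later-acting FOS protein without the transactivation domain of FOS, known for its abundance in invasive tumour cells. Its lowest, median and highest A375 wells were 0, 95.8 and 848 CPM with kit #634413 and 9.75, 63.6 and 366 CPM with kit #634444. It had 0 counts in all 36 Jurkat wells. All 16 A375 wells of kit #634444 stood above every Jurkat well, which made FOSL1 the 1 gene of the 10 whose wells did not overlap, against 2.02% of all genes compared. With kit #634413, 13 of 15 A375 wells had FOSL1 and the other 2 were at 0 like Jurkat; 0 of the 10 genes were free of overlap, against 1.46%. The summed levels were 148 and 138 CPM in A375, at least 776-fold and at least 581-fold higher than in Jurkat. A375 well 3 of kit #634413, at 848 CPM, carried 38.6% of that group's FOSL1 counts, and without it the bound went from 9.60 to 9 on the log2 scale.

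FOSL2 (chromosome 2, 28392448 to 28417317) encodes FRA2. It was the FOS family gene with the least difference between the lines. Its medians were 2.95 and 16.7 CPM in A375 and 1.32 and 4.66 CPM in Jurkat, with highest wells of 91, 43.6, 183 and 108 CPM in the same order. Each group had wells at 0 and the groups overlapped throughout. The summed levels were 21.8 CPM in A375 against 22.9 in Jurkat with kit #634413, a log2 fold of -0.07, and 20.3 against 16.3 CPM with kit #634444, a log2 fold of 0.32. The sign of neither value was stable, since leaving out 1 well moved the first between -0.45 and 0.53, and the mean of the wells' CPM turned the second to -0.06. With the mean of the wells' TPM the first was -1.03, past 2-fold.

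JUN (chromosome 1, 58776845 to 58784048) encodes c-JUN, a JUN family partner of FOS proteins beside JUNB and JUND, and has a single exon. In contrast to FOS, FOSB and FOSL1, it was lower in A375, past 2-fold with kit #634413 and under it with kit #634444. Its lowest, median and highest wells were 0, 0 and 42.2 CPM in A375 and 0, 2.49 and 593 CPM in Jurkat with kit #634413, and 0, 8.24 and 131 CPM in A375 and 0, 14.5 and 236 CPM in Jurkat with kit #634444. JUN was found in 4 of 15 and 12 of 16 A375 wells and in 10 and 12 of 18 Jurkat wells, and the groups overlapped. The summed levels were 8.45 CPM in A375 and 71.3 CPM in Jurkat with kit #634413, 8.43-fold lower in A375 (7.03 to 10.2), and 25.1 and 45.3 CPM with kit #634444, 1.80-fold lower (1.57 to 2.07). Jurkat well 4 of kit #634413 held 53.4% of its group's JUN counts, and without it the log2 fold went from -3.08 to -2.07. With kit #634444 the log2 fold was -0.85, and it passed 2-fold, at -1.21 without A375 well 12 and at -1.08 without A375 well 21.

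JUNB (chromosome 19, 12791486 to 12793315) and JUND (chromosome 19, 18279694 to 18281622) encode the other JUN proteins. JUNB, an early gene that can oppose c-JUN, was found in every kept A375 well, at medians of 53.1 and 43.9 CPM, and in 12 and 14 of 18 Jurkat wells, at medians of 3.83 and 13.3 CPM. Jurkat wells reached up to 218 and 111 CPM, within the A375 range. The summed JUNB levels were 72.7 against 38.1 CPM, 1.91-fold higher in A375 (1.73 to 2.11), with kit #634413 and 66.6 against 23.3 CPM, 2.86-fold (2.50 to 3.27), with kit #634444. The first value, 0.93 on the log2 scale, passed 2-fold when any 1 of 6 wells was left out, at 1.01 and 1.02 without A375 wells 10 and 14 and at 1.07, 1.47, 1.08 and 1.21 without Jurkat wells 6, 10, 12 and 14.

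JUND, known as the constitutive member of the family, was the steadiest of the 10 genes. It was found in all A375 wells and in 16 and 18 of 18 Jurkat wells, and its medians were 95.2 and 100 CPM in A375 and 61.9 and 69.3 CPM in Jurkat. Its coefficient of variation over wells was 0.525 and 0.384 in A375 and 0.809 and 0.855 in Jurkat, the lowest of the 10 genes in each of the 4 groups. The summed levels differed by 1.68-fold (1.54 to 1.82) and 1.45-fold (1.33 to 1.57), higher in A375 with both kits and under the 2-fold mark.

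ATF3 (chromosome 1, 212565334 to 212620777), a stress-induced factor that pairs with JUN proteins, was at 0, 93.1 and 270 CPM in the lowest, median and highest A375 wells of kit #634413 and at 0, 26.1 and 220 CPM in those of kit #634444. In Jurkat the median was 0 with both kits and the highest wells were at 96.9 and 21.6 CPM. ATF3 was found in 12 of 15 and 15 of 16 A375 wells and in 7 and 5 of 18 Jurkat wells, and the groups overlapped. Its summed levels were 92.2 against 11.8 CPM, 7.80-fold higher in A375 (6.69 to 9.14), and 57.5 against 1.66 CPM, 34.6-fold higher (22.4 to 56.2). The second ratio rested on 21 Jurkat counts. Without Jurkat well 8 of kit #634413 and without Jurkat well 4 of kit #634444 the log2 folds of 2.96 and 5.11 became 3.65 and 5.99.

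EGR1 (chromosome 5, 138465479 to 138469303) encodes a zinc finger factor outside AP-1 and is a classic target of serum response factor. It had the highest summed CPM of the 10 genes in A375 and the widest range. In A375 the lowest, median and highest wells were 0, 265 and 1170 CPM with kit #634413 and 0, 22.1 and 947 CPM with kit #634444. In Jurkat they were 0, 0 and 332 CPM, and 0, 29 and 717 CPM. Wells near 0 and wells far above the median stood side by side within a group, and the groups overlapped; with kit #634444 the median was higher in Jurkat than in A375. The summed levels were 315 against 46 CPM, 6.85-fold higher in A375 (6.33 to 7.41), with kit #634413 and 343 against 124 CPM, 2.77-fold (2.61 to 2.94), with kit #634444. With each well weighted equally the second log2 fold of 1.47 became 0.83, under 2-fold. Without Jurkat well 4 of kit #634413 and Jurkat well 15 of kit #634444, the log2 folds of 2.78 and 1.47 became 3.39 and 2.06.

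IER2 (chromosome 19, 13150411 to 13154911), an early gene whose product is a nuclear regulator of transcription, was found in 15 of 15 and 15 of 16 A375 wells and in 15 and 18 of 18 Jurkat wells. Its medians were 105 and 88.8 CPM in A375 and 50.3 and 37.9 CPM in Jurkat, with highest wells of 277, 219, 337 and 304 CPM. The summed levels were 1.40-fold (1.31 to 1.5) and 1.56-fold (1.43 to 1.70) higher in A375. The groups overlapped throughout. The summed levels stayed under 2-fold apart, while the medians were over 2-fold apart with both kits.

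The genes found per well differed between the lines. The median depth was 927659 and 690787 counts on Ensembl transcripts in the A375 wells and 810339 and 664385 in the Jurkat wells. At least 1 count was found for a median of 8 and 9 of the 10 genes in a single A375 well and of 4 and 5 genes in a single Jurkat well. After thinning each well to 100000 counts on protein coding genes the medians were 8 and 8 in A375 and 4 and 5 in Jurkat. Without thinning, more genes in general had counts in at least 50% of the A375 wells, 9808 and 10932, against 7714 and 9169 in Jurkat. Of the 10 genes, 9 and 10 reached that share in A375 and 5 and 6 in Jurkat. How much of the difference per well holds for all genes was not tested. FOS was found in 93.3% (68.1 to 99.8) and 81.2% (54.4 to 96) of A375 wells and in 16.7% (3.58 to 41.4) and 33.3% (13.3 to 59.0) of Jurkat wells. After thinning, the FOS share was 86.7% and 75% in A375 and 16.7% and 11.1% in Jurkat. For comparison, SOX10 and CSPG4, which a T cell should lack, were each found in 0 and 1 of 18 Jurkat wells, and the T cell gene LCK in 0 and 1 A375 wells. Some other marker genes were found more often in the other line, MITF in 3 and 5 Jurkat wells and CD3G in 3 and 6 A375 wells. FOS, FOSB and EGR1 were all 3 found in 13 of 15 and 10 of 16 A375 wells, and in 0 and 3 of 18 Jurkat wells. None of the 3 was found in 0 and 1 A375 wells and in 9 and 3 Jurkat wells.

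**Figure D3:**
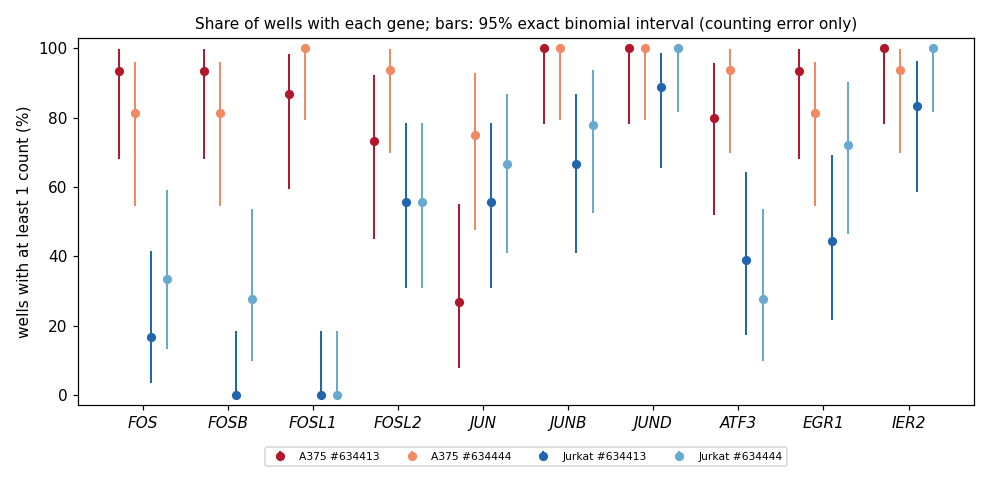
Percentage of kept wells with at least 1 count of each gene in the 4 groups; bars are 95% exact binomial intervals, which cover counting error only. JUNB, JUND and IER2 were found in most wells of both lines, FOS, FOSB, FOSL1 and ATF3 mainly in A375, and JUN least often in A375 with kit #634413.

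Levels between genes can be compared per length, as mean TPM over wells. In A375 with kit #634413 EGR1 (76.6 ± 81.3 TPM, SD, n = 15), FOSL1 (73.1 ± 105) and ATF3 (66.2 ± 53.7) led, and with kit #634444 JUND (75.5 ± 46.6, n = 16), FOSL1 (56.7 ± 53.9) and EGR1 (47.3 ± 69.6). JUN was the lowest of the 10 in A375 with both kits, at 1.39 ± 2.50 and 5.12 ± 7.79 TPM, next to FOSL2 at 3.49 ± 5.93 and 5.54 ± 6.34 TPM. The other JUN genes of A375 stood higher, JUND at 61.2 ± 52.8 and 75.5 ± 46.6 TPM and JUNB at 29.5 ± 26.3 and 20.9 ± 16.2 TPM. In Jurkat IER2 (34.6 ± 41.0, n = 18) and JUND (30.3 ± 42.2) led with kit #634413 and JUND (51.4 ± 57.7, n = 18) and IER2 (25.6 ± 32.2) with kit #634444, FOSL1 being last at 0. No neighbours in these orders differed by more than 1 SD over wells.

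Between the kits, the summed levels of 9 of the 10 genes were within 2-fold in A375. JUN alone passed 2-fold, at 25.1 CPM with kit #634444 and 8.45 CPM with kit #634413, 2.97-fold (2.42 to 3.67), which is 1 of 10 against 13.8% of the 20054 genes compared. None (0 of 10) was lower, against 12.7%. Medians over wells were less alike. With kits #634413 and #634444 they were 265 and 22.1 CPM for EGR1, 102 and 28.5 for FOSB and 93.1 and 26.1 for ATF3. JUN, FOSL2 and JUND had higher medians with kit #634444. The EGR1 log2 fold of 0.12 became -0.72 with the mean of the wells' CPM and -0.25 without A375 well 21 of kit #634444. In Jurkat, where 9 of the 10 genes passed the minimum of 1 CPM, EGR1 was 2.69-fold higher with kit #634444 (2.46 to 2.94) and FOSB at least 32-fold higher, 2 of 9 against 17.9% of 17087 genes, and ATF3 was 7.11-fold lower (4.51 to 11.8), 1 of 9 against 17.5%. Some of these values rested on 1 well. Without Jurkat well 15 of kit #634444 the EGR1 log2 fold of 1.43 became 0.83, and without Jurkat well 4 of kit #634413 it became 2.05. The ATF3 value of -2.83 became -3.71 without Jurkat well 4 of kit #634444 and -2.14 without Jurkat well 8 of kit #634413. FOS, JUN and FOSL2 were within 2-fold in Jurkat, but 1 well moved each of them past it. The FOS value of 0.27 became -1.17 without Jurkat well 10 of kit #634444 and 1.04 without Jurkat well 14 of kit #634413. The JUN value of -0.65 became -1.01 without Jurkat well 16 of kit #634444, also passed 2-fold without Jurkat well 10 of that kit, and became 0.35 without Jurkat well 4 of kit #634413. The FOSL2 value of -0.49 became -1.08 without Jurkat well 3 of kit #634444 and 0.12 without Jurkat well 14 of kit #634413. The wells of each kit and line carry neighbouring index numbers and the library pools are not named, so kit and pool cannot be told apart.

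Within A375, FOS varied with FOSB and with EGR1 from well to well. Spearman's rho of log2(CPM + 1), given as a description with no p, was 0.81 over 15 wells and 0.65 over 16 wells for FOS with FOSB, 0.61 and 0.66 for FOS with EGR1, and 0.44 and 0.59 for FOSB with EGR1. Over all pairs of genes with counts in at least 50% of the wells, the 5th and 95th percentiles were -0.44 and 0.47, and -0.42 and 0.46, so FOSB with EGR1 lay inside that range with kit #634413, where it was 0.26 without the 2 wells farthest from the FOSB median. A375 well 18 of kit #634413, which had the most FOSB at 331 CPM, also had 759 CPM of EGR1 and 137 CPM of FOS, and well 2, which had no FOS or FOSB, had 45 CPM of EGR1. Among the 9661 protein coding genes with counts in at least 50% of the A375 wells of both kits, ranked by the lower rho of the 2 kits, FOSB and EGR1 were the first and second closest to FOS. After thinning to equal depth the values were 0.73 and 0.69, 0.67 and 0.60, and 0.47 and 0.59 in the same order. The wells share their library preparation and differ in depth: in A375 with kit #634444 EGR1 and FOS had a rho of 0.68 and 0.48 with the well's counts, and with depth held constant FOS with EGR1 was 0.52. Centring within blocks of 8 neighbouring index numbers, an alternative chosen after the values were seen, gave 0.81 and 0.46, 0.59 and 0.67, and 0.44 and 0.34. FOSB with EGR1 was then inside the uncentred 5th to 95th percentile range with both kits, and FOS with FOSB was at its upper edge with kit #634444.

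JUNB and IER2 were another pair close in A375 with both kits, at a rho of 0.59 and 0.56 (0.38 and 0.42 after thinning). FOSL1 did not move with FOS: their rho was -0.33 with kit #634413 and 0.31 with kit #634444. FOSL2 ran against FOS with kit #634413, at -0.57, and not with kit #634444, at 0.16. Over all pairs of the genes with counts in at least 50% of the wells, the median rho was 0.03 over 36 pairs and 0.14 over 45 pairs in A375, beside 0.01 and 0.03 over all pairs of genes that passed the same filter. In Jurkat 5 and 6 of the genes had counts in at least 50% of the wells, and their median rho was 0.07 and 0.02. EGR1 with IER2, at 0.56 over 18 wells of kit #634444, was the highest Jurkat pair; EGR1 was found in fewer than 50% of the wells with kit #634413.

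**Figure D4:**
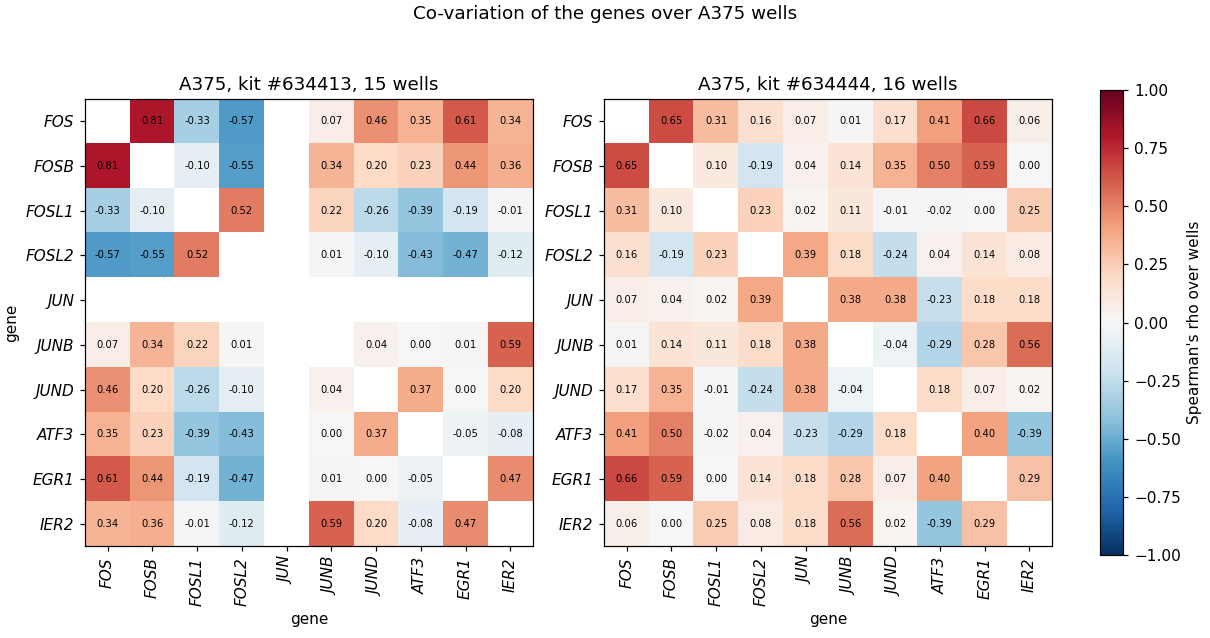
Spearman's rho of log2(CPM + 1) between the genes over the A375 wells of kit #634413 (left, 15 wells) and kit #634444 (right, 16 wells); red is positive and blue negative, and JUN is blank on the left because it was found in fewer than 50% of the wells. FOS with FOSB, FOS with EGR1 and JUNB with IER2 were above 0.5 with both kits.

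**Figure D5:**
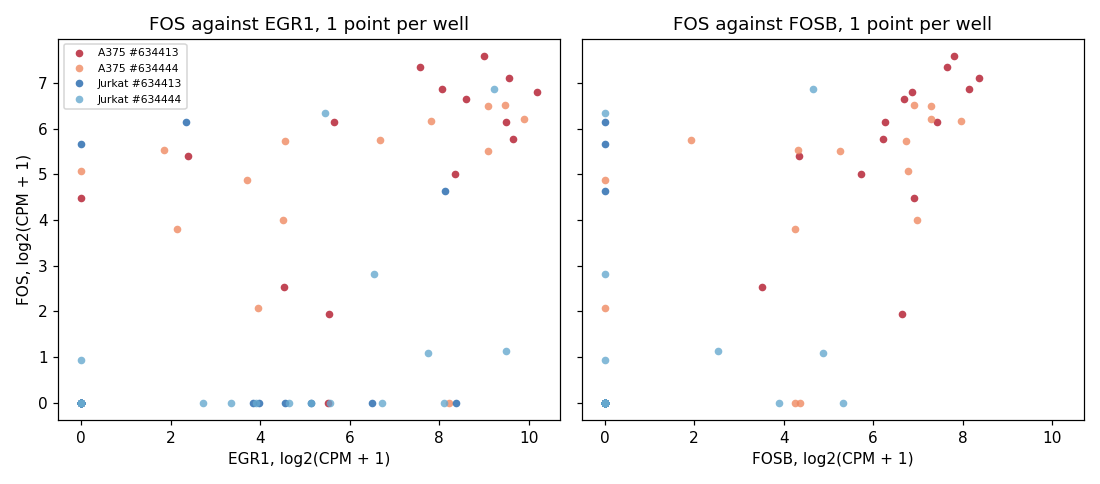
FOS against EGR1 (left) and against FOSB (right), as log2(CPM + 1), with 1 point per kept well. A375 wells spread along the diagonal and most Jurkat wells lie at 0 CPM of FOS, many of them with EGR1.

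The genes outside the 10 whose pattern over A375 wells was most like a member were taken as those with the highest lower rho of the 2 kits, and with 9661 genes ranked the highest values are high by selection. For FOS they were ATP6V0D1 (0.68 and 0.60), C17orf58 (0.60 and 0.65) and RAD54L2 (0.67 and 0.59). For FOSB they were RGS3 (0.89 and 0.56), WARS1 (0.57 and 0.56) and LSM12 (0.56 and 0.63), and for EGR1 COA4 (0.63 and 0.70), PSMA5 (0.68 and 0.63) and SH3BGRL2 (0.63 and 0.66). For FOSL1 they were ZNF638 (0.69 and 0.63), NT5C2 (0.66 and 0.61) and AXL (0.60 and 0.71), a receptor tyrosine kinase. The first gene was ZDHHC8 (0.64 and 0.66) for FOSL2, POLR3E (0.71 and 0.74) for JUNB, PAF1 (0.64 and 0.61) for JUND, SHC1 (0.70 and 0.73) for ATF3 and SERTAD3 (0.60 and 0.59) for IER2. In Jurkat, over 18 wells of each kit, it was SEPTIN9 (0.56 and 0.74) for FOSL2, TOMM70 (0.56 and 0.55) for JUNB, TMEM184B (0.67 and 0.51) for JUND and CMTM6 (0.62 and 0.56) for IER2.

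Kallisto's estimates were also split by transcript, as a share of each gene's summed counts, and short reads of single cells assign these shares loosely. The full 4-exon transcript FOS-201 took 60.3% and 47.5% of the FOS counts in A375 and 0% and 2.42% in Jurkat, where FOS counts were 115 and 111 in all. ATF3-202, a 4-exon coding transcript, took 45.2% and 37.6% of the ATF3 counts in A375 and 0% in Jurkat. The 1-exon IER2-203, which starts inside the gene, took 30.2% and 30% of the IER2 counts in A375 and 2.63% and 10.8% in Jurkat, and was found in 8 and 9 A375 wells and in 3 and 4 Jurkat wells. The 1-exon JUND-201 took 75.9% to 86.5% of the JUND counts in all 4 groups. FOSL1-201 took 47.4% and 67% of the FOSL1 counts in A375. FOSL2 and JUNB also overlap reverse-strand genes: FOSL2-AS1 had at most 3 counts in any group, while HOOK2, whose locus contains JUNB, had 246 to 550.

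Of the other early genes, a list of 23 named ones, 20 were compared with both kits. In A375, 13 of the 20 were at least 2-fold higher with both, against 25.3% of all genes, and 1 was lower, against 15.3%. The 20 include 6 that were below 1 CPM in Jurkat with at least 1 kit and so passed the minimum through A375. The median log2 fold over the 20 and 22 genes compared with each kit was 2.94 and 2.04, beside 0.20 and 0.17 over all genes. NR4A2, an orphan nuclear receptor, had 445 and 429 counts in A375 and 1 and 1 in Jurkat. SGK1, a serum-induced kinase, was at 100 and 56.9 CPM in A375, and at 1.53 and 0.0792 CPM in Jurkat. IER3, an early gene linked to survival, was at 137 and 122 CPM in A375 and 3.11 and 5.54 in Jurkat. KLF4 was at 45.5 and 41.1 CPM against 0 and 2.46. The gene that was lower in A375 was DUSP2, a phosphatase of MAP kinases made in lymphocytes, at 3.10 and 2.40 CPM against 35 and 20.9. ZFP36, which destabilises early mRNAs, was at 17.1 and 21.8 CPM against 25.3 and 18.6, and IER5 at 39.3 and 29.6 CPM against 20.4 and 18.

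Among the upstream regulators 3 of 19 were higher and 4 lower in A375 with both kits, beside 25.3% and 15.3% of all genes, and the median log2 fold was -0.04 and -0.24. ELK3, a partner of serum response factor, was at 85.6 and 84.4 CPM in A375 and 18.6 and 17.9 CPM in Jurkat, and MAPK10, a JUN kinase, at 33.0 and 38.8 against 7.08 and 14.5. MAPK14 (p38), at 29.3 and 29.7 against 81.7 and 72.6 CPM, and MAP2K2 (MEK2), at 86 and 67.1 against 197 and 208, were lower in A375. MAP2K1 (MEK1) and MAPK9, another JUN kinase, differed little, with log2 folds of 0.17 and 0.13, and 0.15 and -0.24. Of the other bZIP genes 2 of 14 were higher and 1 was lower with both kits, beside the same 25.3% and 15.3%, and the median log2 fold was 0.60 and 0.13. BATF3, a lymphoid partner of JUN, was lower in A375, at 3.10 and 3.15 CPM against 25.4 and 13.9, while JDP2, which represses AP-1, was at 10.5 and 13.1 against 4.07 and 1.19 and BATF2 at 3.10 and 4.28 CPM against 0. BATF2 passed the minimum through A375 and could only be called higher. ATF4 and ATF1 were within 2-fold, with log2 folds of -0.18 and -0.31, and 0.54 and 0.41.

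Of the AP-1 target list, 10 of 20 genes were compared with both kits, and 8 of these were below 1 CPM in Jurkat with at least 1 kit and so passed the minimum through A375. Their count past 2-fold was largely fixed by that minimum and describes no more than the genes themselves. CD44, an adhesion receptor, was at 703 and 677 CPM in A375 and 0 and 0.317 in Jurkat, and CCND1, the cyclin D1 gene, at 563 and 413 CPM against 0. TIMP1, an inhibitor of metalloproteinases, was at 149 and 159 CPM against 0 and 0.158, and SPP1 at 9.62 and 13.3 against 0. VIM, made in both lines, was at 907 and 1136 CPM against 498 and 501. Whether AP-1 acts on these genes here was not tested. Of the 8 heat shock genes 1 was higher and 1 lower with both kits, beside 25.3% and 15.3% of all genes, and the median log2 fold was 0.29 and -0.20. HSPA1A was at 76.6 and 49.6 CPM in A375 against 7.25 and 14.4, although its near-identical copy HSPA1B makes its counts uncertain, HSP90AA1 was at 1254 and 872 against 2687 and 2578, and HSPA8 and HSPB1 were within 1.25-fold.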

How the data were processed

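Single-cell total RNA libraries of A375 and Jurkat wells were sequenced paired-end. The authors trimmed the reads with cutadapt, quantified Ensembl v91 transcripts with Kallisto 0.43.1 in its stranded mode, and deposited estimated counts (expected counts, not normalized) per transcript and well. The authors also deposited TPM, which Kallisto derives from those counts and the effective length. Gene values here are sums over transcripts, matched by identifier to GENCODE v44 (195850 of 200206 Ensembl transcripts).

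The 78 wells held 909 to 2567265 estimated counts each. Over the 67 kept wells, Ensembl transcripts held 88.7% of the counts. The labels mark no well as empty, although the study's sorts included wells without a cell. The 78 wells gave 3003 pairs, of which 0 held identical values. Wells with at least 100000 counts on protein coding genes were kept. Summed counts were compared as CPM, a gene was called at 2-fold, and a group at 0 was set to 3 counts. Genes with a mean of the 2 groups of at least 1 CPM made up the background. A well was positive with at least 1 estimated count. Intervals are exact Poisson for sums, with the ratio's taken from the exact binomial, and Clopper-Pearson for shares. The studied wells share 1 culture per line as far as the labels tell, so no test across wells was run. Correlations used log2(CPM + 1).

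The members and lists were chosen with earlier results of these data known. The named genes were all 10 members, of each list up to 4 genes past 2-fold the same way with both kits, by the smaller of the kits' folds, and up to 2 with the smallest fold above 10 CPM in every group, the 3 closest genes for each member, and genes overlapping a member; the closest gene to JUN in Jurkat is not reported here, and DUSP2 was added after its values were seen. Alternatives were all wells, other denominators, mean CPM, mean TPM, edgeR 4.0.16 TMM and DESeq2 1.42.0 median-of-ratios factors of the 4 group sums, other count minimums, thinning and leave-one-out. The fold procedure was tested on simulated data. Python 3.11.15, numpy 2.4.6, pandas 2.3.3, scipy 1.17.1, matplotlib 3.10.9 and R 4.3.3 were used.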

Additional observations from a re-analysis of the deposited data

Results flagged for a closer look

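The 11 A375 wells left out of every comparison held 119 counts of the 10 genes in all, above the floor of 3 counts. These counts lay in 5 of the 11 wells: IER2 and EGR1 had 34 counts each, FOSB 16.4, ATF3 15, JUND 11 and FOSL1 9. FOS, FOSL2, JUN and JUNB had 0 counts there. The 5 wells held 80958 to 278553 counts in total but only 4851 to 31670 on protein coding genes, and the other 6 wells held 909 to 2373 counts in total and 0 of these genes. The groups are larger than 10 wells, so no well was tested for standing apart.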

How the results depend on the processing

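Of the 309 log2 folds computed under other settings, 0 changed the sign of a value past 2-fold and all 309 stayed within the wells' spread of the reported value. That spread is the square root of the summed variances of log2(CPM + 1) in the 2 groups. It is wide, at 3.21 for FOS and 4.90 for EGR1 between the lines with kit #634444. Staying within it therefore does not show that a value is stable. Calls at 2-fold did change. With the mean of the wells' TPM, the genes lower in A375 with kit #634413 went from 1 to 2. With all deposited wells the genes without overlap with kit #634444 went from 1 to 0. Leaving out 1 well, the genes lower in A375 with kit #634444 ranged from 0 to 1, the genes without overlap with kit #634413 from 0 to 1, and between the kits in Jurkat the higher genes and the lower genes each ranged from 1 to 3. With mean TPM JUNB and JUND also passed 2-fold with kit #634413, at log2 folds of 1.32 and 1.02, and FOSL2 did so at -1.03. Calls were also lost with kit #634444: EGR1 went from 1.47 to 0.83 with mean CPM and FOS from 2.52 to 0.95 with mean TPM. Under that setting the gene was no longer at least 2-fold higher in A375 with both kits. Over the scalings tried, the median log2 fold of all genes ranged from 0.11 to 0.26 (kit #634413) and from 0.08 to 0.25 (kit #634444). With TMM or median-of-ratios factors no call for the 10 genes was gained or lost.

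The background share depended on the minimum level. With at least 10 CPM it was 22.4% higher in A375 with kit #634444, 3.39% and 3.08% higher and lower between kits in A375, and 6.32% and 6.42% in Jurkat. With no minimum beyond 3 counts it was 22.8% and 27.7% higher with kit #634444 in A375 and Jurkat. Requiring 10 counts left 2 genes in at least 50% of the Jurkat wells of kit #634413, against 5 with 1 count. Of 424 correlations recomputed, 35 moved by more than their jackknife error. The cause of these changes was not tested. Depth limits the low genes: in Jurkat a gene found in 0 of 18 wells may still be in up to 18.5% of wells by the exact interval. No paired analysis was possible because the labels give no numbers that tie wells of different groups together, and no test was run.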
